A study of Mus musculus with 12 samples.

Results

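The genes described here are 38 nuclear receptors and nuclear receptor coregulators in mouse liver, a set listed by gene name, with no threshold on measured values. A gene was represented by the array probe set that names it and no other gene, and by the brightest such probe set where there was more than 1. Of the 38 genes, 36 had such a probe set among 22180 genes on the array, and 34 were bright enough to be tested among 14031 tested genes. Nr1h2 and Ncor1 were not analysed here. Hnf4g and Nr4a3 lay below the brightness filter on all 12 arrays, with group means of 5.04 to 5.29 and 5.11 to 5.37 on the log2 scale, and a dim probe set is not evidence that a gene is silent.

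The arrays (Affymetrix Mouse Gene 2.0 ST, with probes along whole transcripts) measured liver RNA of male C57BL/6 mice that were 8 to 10 weeks old at the start. Mice were wild-type or Pparβ/δ-/- (called null here), that is, without a working Ppard, which encodes the nuclear receptor PPARβ/δ. After 1 week of acclimation on liquid control diet, feeding went on for 16 weeks with that diet or with one that held ethanol at 4% (v/v). Each of the 4 combinations of genotype and diet had 3 arrays. The feeding study had 10 mice per group, and the labels do not state whether the arrays of a group come from different mice, so the spread behind each error and p-value may be technical. The comparison asks whether the levels of the other receptors, and of the proteins they recruit, differed with the loss of PPARβ/δ or with ethanol feeding.

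Nuclear receptors are transcription factors that bind DNA through a zinc-finger domain and many of which change shape when a small lipid-soluble ligand fills their pocket. Many bind DNA as a heterodimer with a retinoid X receptor, PPARβ/δ included, so these receptors share a partner. A bound ligand releases corepressors and recruits coactivators such as the p160 family and the Mediator complex, and in liver this circuitry sets bile acid, lipid, glucose and drug metabolism.

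Nuclear receptors commonly recognise the half-site AGGTCA or close relatives of it, and the promoters of 4 members are given here. Rxrg and Rara differed between genotypes and have a window with this half-site, and a textbook element describes Rarb and Nr4a1. The promoter of Esrrg, which also differed between genotypes, is not printed. The windows run from 250 bases before to 50 bases after the annotated start, on the strand of the gene, and are from RefSeq on GRCm38.p6. Where a gene has several windows, the one with the most matches of its motif was chosen. Capitals mark motif matches found on either strand, AGGTCA in Rxrg and Rara, which differed between genotypes, NGTTCA and AGTTCA with 5 bases between them in Rarb, the direct repeat known as its retinoic acid response element, and TGCGTCA, related to the cAMP response element, in Nr4a1, the most variable member.
Rxrg, chr1:167618015-167618314, plus strand: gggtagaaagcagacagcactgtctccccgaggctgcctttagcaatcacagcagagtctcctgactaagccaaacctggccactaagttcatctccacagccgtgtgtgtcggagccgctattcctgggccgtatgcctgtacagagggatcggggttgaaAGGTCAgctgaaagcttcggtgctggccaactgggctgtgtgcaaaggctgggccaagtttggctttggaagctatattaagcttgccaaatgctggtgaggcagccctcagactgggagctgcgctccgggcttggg
Rara, chr11:98964622-98964921, plus strand: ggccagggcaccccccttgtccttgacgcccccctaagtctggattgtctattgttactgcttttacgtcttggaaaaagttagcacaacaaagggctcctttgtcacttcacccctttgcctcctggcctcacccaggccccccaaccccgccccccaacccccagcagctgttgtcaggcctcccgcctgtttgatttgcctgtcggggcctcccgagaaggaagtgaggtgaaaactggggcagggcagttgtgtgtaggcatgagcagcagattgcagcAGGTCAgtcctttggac
Rarb, chr14:16575427-16575726, minus strand: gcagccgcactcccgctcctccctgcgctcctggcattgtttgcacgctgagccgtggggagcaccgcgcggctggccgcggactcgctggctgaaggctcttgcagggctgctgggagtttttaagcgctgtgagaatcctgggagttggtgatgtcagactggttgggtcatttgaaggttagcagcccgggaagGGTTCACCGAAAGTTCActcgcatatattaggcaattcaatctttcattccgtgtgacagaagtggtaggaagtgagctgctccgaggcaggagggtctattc
Nr4a1, chr15:101266596-101266895, plus strand: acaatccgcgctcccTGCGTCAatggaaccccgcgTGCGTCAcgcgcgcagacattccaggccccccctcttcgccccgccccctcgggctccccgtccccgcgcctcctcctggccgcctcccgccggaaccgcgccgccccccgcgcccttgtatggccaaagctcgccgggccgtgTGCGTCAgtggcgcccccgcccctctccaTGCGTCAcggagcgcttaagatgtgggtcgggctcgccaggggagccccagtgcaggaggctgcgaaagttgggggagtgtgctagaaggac
The AGGTCA of Rxrg starts 88 bases before the start site, and that of Rara lies downstream of it. In Rarb the repeat starts 53 bases before the start site. The matches in Nr4a1 start 235, 215, 71 and 42 bases before it. Of the 38 members, 33 matched a window by symbol, with 53 windows between them, of which Rxrg has 2 and Rara has 4. Among all 32851 windows of 300 bases, AGGTCA was in 16.3%, AGTTCA in 14% and the TGCGTCA motif in 2.12%. Among the 53 member windows, AGGTCA was in 7 and AGTTCA in 8, each time in windows of different members. So 1 of the 2 Rxrg windows and 1 of the 4 Rara windows held AGGTCA. The direct repeat was in 0.0335% of windows, and among members only in Rarb. Only 1 window of all held 4 or more TGCGTCA matches, and it was the Nr4a1 window. No Esrrg window held AGGTCA. A match is a description of letters, not of a bound site, and the arrays do not measure binding.

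Across the series, array medians of log2 intensity lay between 5.55 and 5.62, 32.3% of the variance lay on the first principal component, and the typical distance of an array from its group ran from 0.0635 to 0.110. The deleted gene could not check the labels: Ppard had group means of 7.78 ± 0.20, 7.86 ± 0.10, 7.84 ± 0.13 and 7.96 ± 0.09 (SD, n = 3) for wild-type control, wild-type ethanol and then the null groups on control and on ethanol diet, an order kept below, and the sources used here do not give where the disruption lies relative to the probes. Of 6 hepatocyte markers, 0 were called in any comparison, and Alb read 13.9 to 14.1 on all arrays. Of 10 Kupffer cell and macrophage markers, 6 were called lower in null mice on control diet, 1 on ethanol diet and 9 with the diets averaged. The averaged count became 5 without wild-type ethanol array 3 or without null ethanol array 1, and 6 without wild-type control array 1 or wild-type ethanol array 2. Their summed level was 12.2 to 12.7 on wild-type control arrays against 11.5 to 11.9 on null control arrays, and 12.5 to 12.8 against 11.8 to 12.3 on ethanol diet. Of 7 sinusoidal endothelial markers 2 were called lower with the diets averaged, and 6 of the 7 differences were negative (median -0.30). Of 7 stellate cell markers 1 was called lower with the diets averaged, but 5 of the 7 differences were positive (median 0.05). On control diet 1 stellate cell marker was called lower and 6 of the 7 differences were positive (median 0.24). In bulk liver, fewer cells of a type and less RNA per cell cannot be told apart, and whether the receptor values depend on these cells was not tested.

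Null mice differed from wild-type mice in 3 members, each higher: Esrrg, an orphan receptor that acts on mitochondrial and gluconeogenic genes, Rara, the retinoic acid receptor alpha, and Rxrg, a retinoid X receptor. Esrrg and Rara were called on control diet, and Esrrg and Rxrg with the diets averaged. A call is a limma adjusted p under 0.05, over all 14031 tested genes. In all, 2 of 34 tested members were called on control diet, where 5.1% of all genes were called (3.21% higher), and 2 of 34 with the diets averaged, where 7% were (3.01% higher), so the share of members lay near the background. With an unadjusted p under 0.05 there were 5 members on control diet, against 22.1% of all genes, and 7 with the diets averaged, against 21.4%. On ethanol diet 0 members were called against 1.79% of all genes, although 5 had an unadjusted p under 0.05 against 16.2% of all genes. Ethanol changed 0 members in wild-type mice (0.0927% of all genes called) and 0 in null mice (0.00713%), with 4 and 3 members at an unadjusted p under 0.05 against 14.5% and 12.2% of all genes. The interaction of genotype and diet called 0 members (0.0143% of all genes), with 4 at an unadjusted p under 0.05 against 15% of all genes, and ethanol averaged over genotypes called 0 (0.0143%), with 4 against 12.1%.

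**Figure D1:**
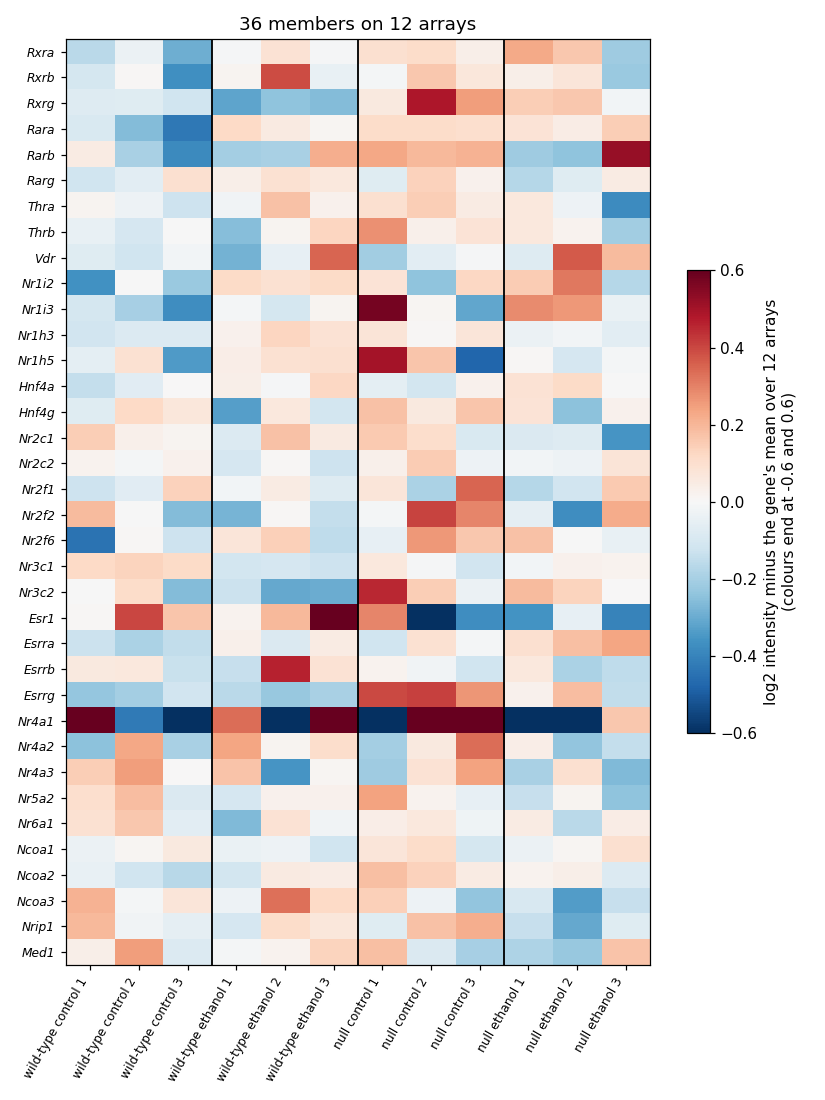
Log2 intensity of the 36 measured members (rows, grouped by role) on the 12 arrays (columns, grouped by genotype and diet), each minus the gene's mean over the arrays, with colours ending at 0.6 either way. Esrrg and Rxrg are above their means on the 3 null control arrays, and Nr4a1 scatters within every group.

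Rxrg read 7.11, 7.12 and 7.07 on the wild-type control arrays, 6.88, 6.95 and 6.93 on wild-type ethanol, 7.25, 7.68 and 7.45 on null control, and 7.34, 7.36 and 7.18 on null ethanol, all as log2 intensity. Every null array was above every wild-type array on both diets. With the diets averaged the log2 difference was 0.36 ± 0.07 (SE, 95% interval 0.20 to 0.52, 1.29-fold, limma adjusted p = 0.0104). The difference was 0.36 ± 0.10 on control diet (adjusted p = 0.0664) and 0.37 ± 0.10 on ethanol diet (adjusted p = 0.101), and the interaction was 0.02 ± 0.15 (95% interval -0.30 to 0.33). Among 34 members Rxrg was the 1 whose 6 null arrays lay above all 6 wild-type arrays, a pattern shown by 1.47% of all tested genes. The other retinoid X receptors, which serve the same heterodimers, did not pass. Rxra, the main liver form, read 11.52, 11.64 and 11.38 on wild-type control, 11.67, 11.76 and 11.67 on wild-type ethanol, 11.77, 11.79 and 11.71 on null control, and 11.90, 11.84 and 11.47 on null ethanol. Its null control arrays were above its wild-type control arrays, by 0.24 ± 0.11 (adjusted p = 0.229), and the groups on ethanol diet overlapped. It differed by 0.14 ± 0.08 with the diets averaged (adjusted p = 0.345), and Rxrb, with overlapping groups on both diets, by 0.03 ± 0.09 (adjusted p = 0.879). Rxrb lies on chromosome 17 with Ppard, with 102 tested genes between them, and 0 of its 20 nearest tested genes were called. Among the 20 tested neighbours of Rxrg on chromosome 1, 1 was called with the diets averaged, Hsd17b7, and 0 on control diet. Over all tested genes 7% were called with the diets averaged and 5.1% on control diet.

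Rara read 7.16, 6.997 and 6.83 on the wild-type control arrays, 7.38, 7.31 and 7.27 on wild-type ethanol, 7.37, 7.37 and 7.36 on null control, and 7.34, 7.30 and 7.41 on null ethanol. The wild-type control arrays were the low ones, below every other array. Null exceeded wild-type on control diet by 0.37 ± 0.09 (95% interval 0.17 to 0.57, 1.29-fold, adjusted p = 0.0377) and on ethanol diet by 0.03 ± 0.09 (95% interval -0.17 to 0.23, adjusted p = 0.909). The ethanol difference in wild-type mice was 0.32 ± 0.09 (adjusted p = 0.158) and uses the same wild-type control arrays as the genotype difference on control diet. The interaction was -0.34 ± 0.13 (95% interval -0.62 to -0.06, adjusted p = 0.265). The call on control diet was lost in 12 of 20 alternatives, and without wild-type control array 3 the difference was 0.29 with an adjusted p of 0.137.

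Rarb, a receptor that is itself a textbook target of retinoic acid, read 7.02, 6.98 and 6.99 on null control arrays and 6.84, 6.59 and 6.40 on wild-type control arrays, groups that did not overlap, but the difference of 0.39 ± 0.19 did not pass (adjusted p = 0.247). Rarg, the third retinoic acid receptor, differed by 0.06 ± 0.09 on control diet (adjusted p = 0.752). The thyroid hormone receptors Thra and Thrb, and Vdr, the vitamin D receptor, were not called in any comparison. Thrb, the main thyroid hormone receptor of liver, had group means of 9.33, 9.34, 9.51 and 9.34, Thra had 6.76, 6.87, 6.91 and 6.69, and both had null control arrays above wild-type control arrays without overlap (0.18 ± 0.11 and 0.15 ± 0.11, adjusted p = 0.384 for Thrb and 0.476 for Thra). Vdr was near the filter, above it on 11 arrays, with group means of 5.76, 5.84, 5.74 and 6.00. Of 7 tested retinoic acid receptor targets 1 was called with the diets averaged: Cyp26a1, which degrades retinoic acid, was higher in null mice by 0.92 ± 0.22 (adjusted p = 0.0238). Cyp26a1 read 7.35, 7.55 and 7.25 on wild-type control, 7.29, 7.38 and 7.54 on wild-type ethanol, 8.50, 7.81 and 9.03 on null control, and 7.95, 7.64 and 8.94 on null ethanol. Every null array was above every wild-type array. The 7 targets include the member Rarb itself. Their median change was 0.13 with the diets averaged, beside 0.04 over the members and -0.00047 over all genes tested. Of 9 tested thyroid hormone receptor targets, Gpd2 was called higher and Bcl3 lower with the diets averaged, and the median was 0.09.

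Nr1i3 (CAR) and Nr1i2 (PXR), the sensors of drugs and bile acids that induce cytochromes P450, were not called. Nr1i2 read 10.15, 10.52 and 10.29 on wild-type control and 10.63, 10.61 and 10.63 on wild-type ethanol, groups that did not overlap, with a difference of 0.30 ± 0.14 (95% interval 0.01 to 0.60, adjusted p = 0.334), and the null groups overlapped. Nr1i3 read 11.22, 11.12 and 10.95 on wild-type control, 11.31, 11.22 and 11.34 on wild-type ethanol, 11.90, 11.34 and 11.01 on null control, and 11.61, 11.58 and 11.28 on null ethanol. The groups overlapped on both diets. It differed between genotypes by 0.26 ± 0.13 (adjusted p = 0.251) with the diets averaged. Of 14 tested CAR and PXR targets, 1 was called higher on control diet, Gstm1, and 1 lower, Cyp2b9, which with the diets averaged differed by -5.14 ± 0.20 (adjusted p = 4.84e-09). The median over the 14 targets was 0.13 with the diets averaged. Cyp2b10, also a target, had group means of 5.36, 6.92, 5.39 and 7.16. Its ethanol difference in wild-type mice was 1.56 ± 0.43 (adjusted p = 0.147). For ethanol in wild-type mice 5 of the 14 had an unadjusted p under 0.05, against 14.5% of all genes, and 0 were called. Nr1h3 (LXR alpha), the oxysterol receptor, read 9.17, 9.20 and 9.20 on wild-type control, 9.31, 9.41 and 9.37 on wild-type ethanol, 9.36, 9.29 and 9.36 on null control, and 9.25, 9.27 and 9.22 on null ethanol. Ethanol arrays were above control arrays in wild-type mice and below them in null mice, without overlap, and Nr1h3 was the only member of 34 with opposite non-overlapping ethanol differences, against 2.08% of all genes. The differences were 0.17 ± 0.07 (adjusted p = 0.303) and -0.09 ± 0.07 (adjusted p = 0.629), and the interaction was -0.26 ± 0.10 (95% interval -0.49 to -0.04, adjusted p = 0.273). Its within-group SD of 0.0355 was small, with 0.178% of tested genes below it. Of 12 tested LXR targets, 3 were higher and 0 lower on control diet, and 3 higher and 2 lower with the diets averaged, where Srebf1, the lipogenic transcription factor, differed by 1.05 ± 0.18 (adjusted p = 0.0045) and Fasn, fatty acid synthase, by 0.97. The list median was 0.04 with the diets averaged. On ethanol diet 0 of the 12 were called higher and 1 lower, with 5 differences positive and 7 negative (median -0.05). Nr1h3 itself is counted among these 12. Nr1h5 was not called.

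Hnf4a, a receptor central to hepatocyte identity, had group means of 12.20, 12.32, 12.23 and 12.34 and a genotype difference of 0.02 ± 0.06 (95% interval -0.11 to 0.15). The TR2 and TR4 testicular receptors Nr2c1 and Nr2c2, and the COUP receptors Nr2f1, Nr2f2 and Nr2f6, which often repress their targets, were not called. Nr2f2 had group means of 8.16, 8.05, 8.41 and 8.11, and Nr2c1 had 8.88, 8.86, 8.87 and 8.64. The largest genotype difference on control diet among these 5 receptors that of Nr2f6, 0.31 ± 0.13 (adjusted p = 0.187). Of 15 tested HNF4A and LRH-1 targets, 1 was called on control diet, Scarb1, and 1 with the diets averaged, Apoa4, both higher.

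Esrrg read 7.14, 7.17 and 7.26 on the wild-type control arrays, 7.21, 7.15 and 7.18 on wild-type ethanol, 7.77, 7.79 and 7.64 on null control, and 7.40, 7.56 and 7.23 on null ethanol. Null arrays were above wild-type arrays on each diet without overlap, and the null control arrays were above the null ethanol arrays. On control diet the difference was 0.54 ± 0.09 (95% interval 0.34 to 0.75, 1.46-fold, adjusted p = 0.00722), and with the diets averaged it was 0.38 ± 0.07 (adjusted p = 0.00456). On ethanol diet it was 0.22 ± 0.09 (adjusted p = 0.28), and the ethanol difference in null mice, which shares the null ethanol arrays, was -0.34 ± 0.09 (adjusted p = 0.293). The interaction was -0.32 ± 0.13 (95% interval -0.61 to -0.03, adjusted p = 0.283), so a smaller genotype difference on ethanol diet was not established. Of the 20 nearest tested genes of Esrrg on chromosome 1, 0 were called on control diet (5.1% of all genes) and 1 with the diets averaged, Tatdn3 (7% of all genes). Esrra, the estrogen-related receptor that drives oxidative metabolism, did not pass but was higher on ethanol arrays in both genotypes without overlap, by 0.16 ± 0.09 in wild-type and 0.18 ± 0.09 in null mice, and by 0.17 ± 0.06 averaged (adjusted p = 0.316). It read 8.12, 8.06 and 8.10 on wild-type control, 8.29, 8.17 and 8.30 on wild-type ethanol, 8.13, 8.34 and 8.24 on null control, and 8.35, 8.43 and 8.49 on null ethanol, with the null arrays above the wild-type arrays of each diet. The genotype difference averaged over diets was 0.16 ± 0.06 (adjusted p = 0.144). Of 10 tested estrogen-related receptor targets, 1 was called on control diet, Cycs, cytochrome c (0.33, adjusted p = 0.0455), with a list median of 0.03, and 0 with the diets averaged, where 2 had an unadjusted p under 0.05. Esrra itself is counted among these 10. Esrrb was dim, above the filter on 7 arrays, and was not called.

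Nr3c1, the glucocorticoid receptor, read 9.77, 9.78 and 9.76 on wild-type control, 9.54, 9.55 and 9.52 on wild-type ethanol, 9.71, 9.64 and 9.53 on null control, and 9.63, 9.67 and 9.67 on null ethanol. The wild-type control arrays were the high ones. The ethanol difference in wild-type mice was -0.24 ± 0.08 (95% interval -0.40 to -0.07, adjusted p = 0.196), and that in null mice was 0.03 ± 0.08. The interaction was 0.27 ± 0.11 (95% interval 0.03 to 0.50, adjusted p = 0.283). Of 14 tested glucocorticoid receptor targets, 2 were called on control diet, Dusp1, a MAP kinase phosphatase, by 1.89 ± 0.23 (adjusted p = 0.000541), and Sgk1. Nr3c2, the mineralocorticoid receptor, read 7.91, 8.02 and 7.65 on wild-type control, 7.78, 7.60 and 7.61 on wild-type ethanol, 8.36, 8.06 and 7.87 on null control, and 8.10, 8.05 and 7.92 on null ethanol. The groups were apart on ethanol diet only. With the diets averaged the genotype difference was 0.30 ± 0.09 (adjusted p = 0.0733). A second, dim probe set of Nr3c2 gave group means of 4.64, 4.46, 4.55 and 4.68. Esr1, the estrogen receptor, had group means of 8.51 ± 0.20, 8.62 ± 0.36, 8.08 ± 0.47 and 8.05 ± 0.19 and differed by -0.50 ± 0.16 with the diets averaged (adjusted p = 0.0755).

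**Figure D2:**
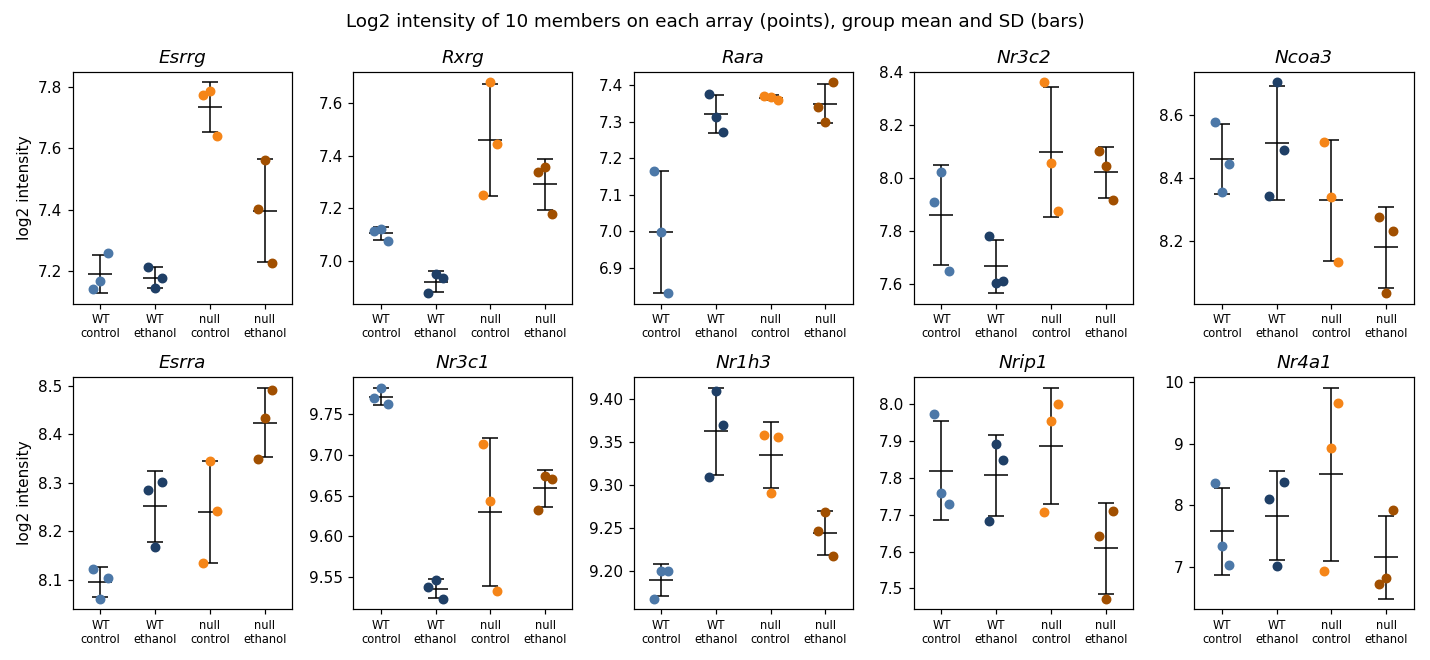
Log2 intensity (vertical axis) of 10 members on each array, grouped by genotype and diet, with a dot per array and the group mean ± SD (n = 3). Rxrg is higher on all null arrays, and the Rara dots of wild-type control lie below all others.

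**Figure D3:**
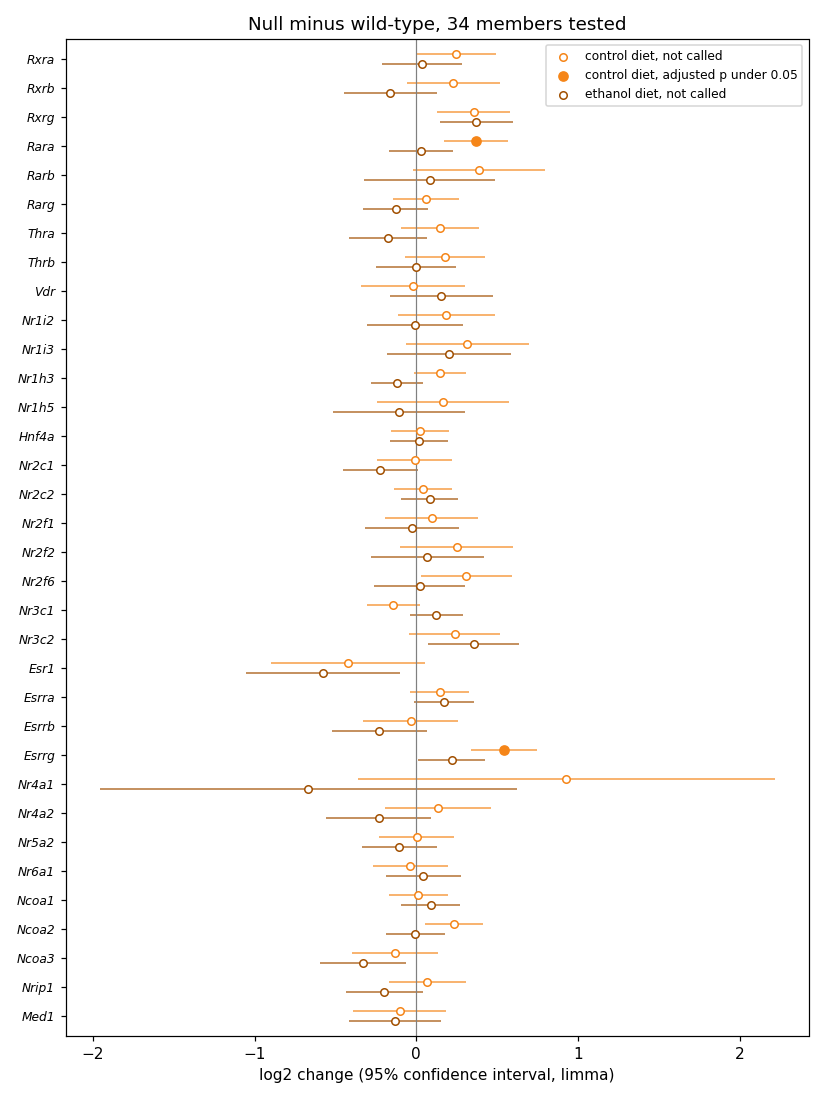
Log2 difference, null minus wild-type, for the tested members (rows), on control diet (light orange) and ethanol diet (brown), with 95% intervals from limma. Filled symbols passed at an adjusted p under 0.05, Esrrg and Rara on control diet.

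Nr4a1, an orphan receptor that is an immediate early gene, was the most variable member. It read 8.37, 7.34 and 7.03 on wild-type control, 8.11, 7.01 and 8.37 on wild-type ethanol, 6.95, 8.92 and 9.65 on null control, and 6.73, 6.82 and 7.93 on null ethanol. The groups overlapped throughout. Its within-group SD was 0.924, larger than in 99.9% of tested genes, and the range over the arrays was 2.92. The ethanol difference in null mice was -1.35 ± 0.60 (95% interval -2.64 to -0.06, adjusted p = 0.396). Leaving out 1 array at a time moved it between -2.13 and -0.77. Jun, another immediate early gene, read 8.91, 10.17 and 10.58 on the null control arrays, on which Nr4a1 was low, high and highest, and Dusp1 read 11.00, 10.64 and 11.41. On wild-type ethanol arrays Jun read 8.73, 9.30 and 8.72, highest where Nr4a1 was lowest. Within wild-type control and within null ethanol, the array with the highest Nr4a1 value also had the highest Jun value. Of 16 immediate early genes, 2 were called on control diet, Dusp1 and Zfp36, both higher. Whether the Nr4a1 values depend on this was not tested. Nr4a2, Nr5a2 (LRH-1, which controls bile acid synthesis) and Nr6a1 were not called. Nr5a2 had group means of 10.19, 10.11, 10.19 and 10.00, Nr4a2 had 6.57, 6.76, 6.71 and 6.53, and neither had groups that lay apart in any pair.

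Of 16 tested clock genes, 4 were called higher and 3 lower in null mice with the diets averaged (7% of all genes), and 9 were not called. On control diet 1 was called higher and 1 lower (5.1% of all genes), and on ethanol diet 0 were called (1.79%), with 8 at an unadjusted p under 0.05. The averaged count of 7 became 4 without wild-type ethanol array 3, without null ethanol array 1, with no filter on low values or with trend and robust settings. Arntl, the core activator, read 8.35, 7.86 and 9.62 on wild-type control, 8.38, 8.40 and 7.96 on wild-type ethanol, 6.85, 7.57 and 8.22 on null control, and 6.55, 7.12 and 6.80 on null ethanol, a difference of -1.24 ± 0.28 (adjusted p = 0.0165). Ciart, a repressor of the loop, differed by 1.67 ± 0.43 (adjusted p = 0.0347). Several receptors cycle through the day in liver, and whether the receptor differences depend on the clock values was not tested.

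**Figure D4:**
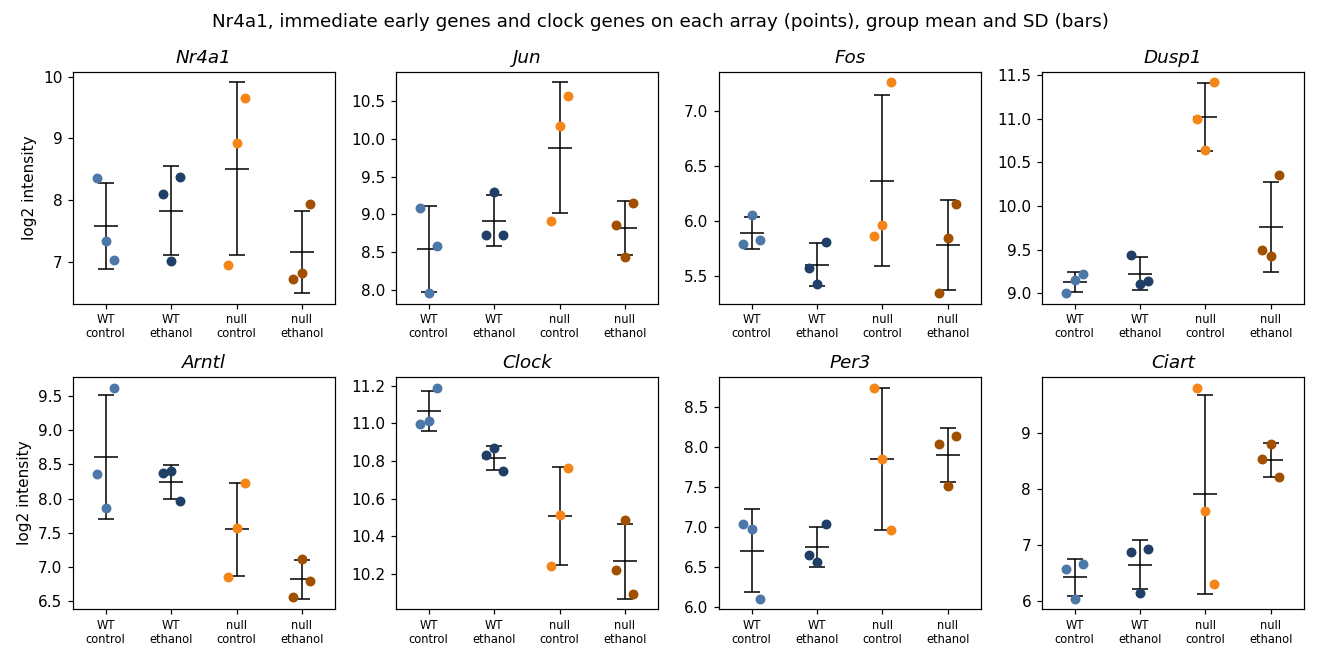
Log2 intensity of Nr4a1, 3 other immediate early genes (Jun, Fos, Dusp1) and 4 clock genes (Arntl, Clock, Per3, Ciart) on each array, with group mean ± SD (n = 3). Nr4a1 and Jun scatter widely on null control arrays, and Clock is lower on the null than on the wild-type arrays of the same diet.

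The 5 tested coregulators among the members were not called in any comparison. They are Ncoa1, Ncoa2 and Ncoa3, the p160 coactivators, Nrip1, a ligand-dependent corepressor, and Med1, the Mediator subunit that receptors contact. Ncoa3 read 8.58, 8.36 and 8.44 on wild-type control, 8.34, 8.70 and 8.49 on wild-type ethanol, 8.51, 8.34 and 8.13 on null control, and 8.28, 8.03 and 8.23 on null ethanol, with null arrays below wild-type arrays on ethanol diet without overlap, and a difference of -0.33 ± 0.12 (adjusted p = 0.204). Ncoa2 read 9.31, 9.24 and 9.19 on wild-type control, 9.25, 9.41 and 9.40 on wild-type ethanol, 9.54, 9.50 and 9.41 on null control, and 9.38, 9.40 and 9.28 on null ethanol. Its null control arrays lay above both the wild-type control and the null ethanol arrays, against wild-type control by 0.23 ± 0.08 (adjusted p = 0.122). Nrip1 read 7.97, 7.76 and 7.73 on wild-type control, 7.68, 7.89 and 7.85 on wild-type ethanol, 7.71, 7.95 and 8.00 on null control, and 7.64, 7.47 and 7.71 on null ethanol, groups that overlapped, and the ethanol difference in null mice was -0.28 ± 0.11 (adjusted p = 0.36). Med1 had group means of 9.06, 9.04, 8.96 and 8.91 and Ncoa1 had 8.72, 8.64, 8.73 and 8.73, without groups apart in any pair. Of 27 other tested coregulators, 2 were called on control diet, both higher: Ppargc1b, a coactivator of estrogen-related receptors, by 0.61 ± 0.15 (adjusted p = 0.0349), and Prmt1, an arginine methyltransferase, by 0.37 ± 0.09 (adjusted p = 0.0336). Their list median was 0.03. Of 10 other tested nuclear receptors, 0 were called in any comparison, with 0 at an unadjusted p under 0.05 for genotype on control diet, 0 with the diets averaged and 3 for ethanol in wild-type mice. Pparg, the adipogenic receptor, was 0.46 ± 0.12 higher on ethanol averaged over genotypes (adjusted p = 0.213), which did not pass.

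**Figure D5:**
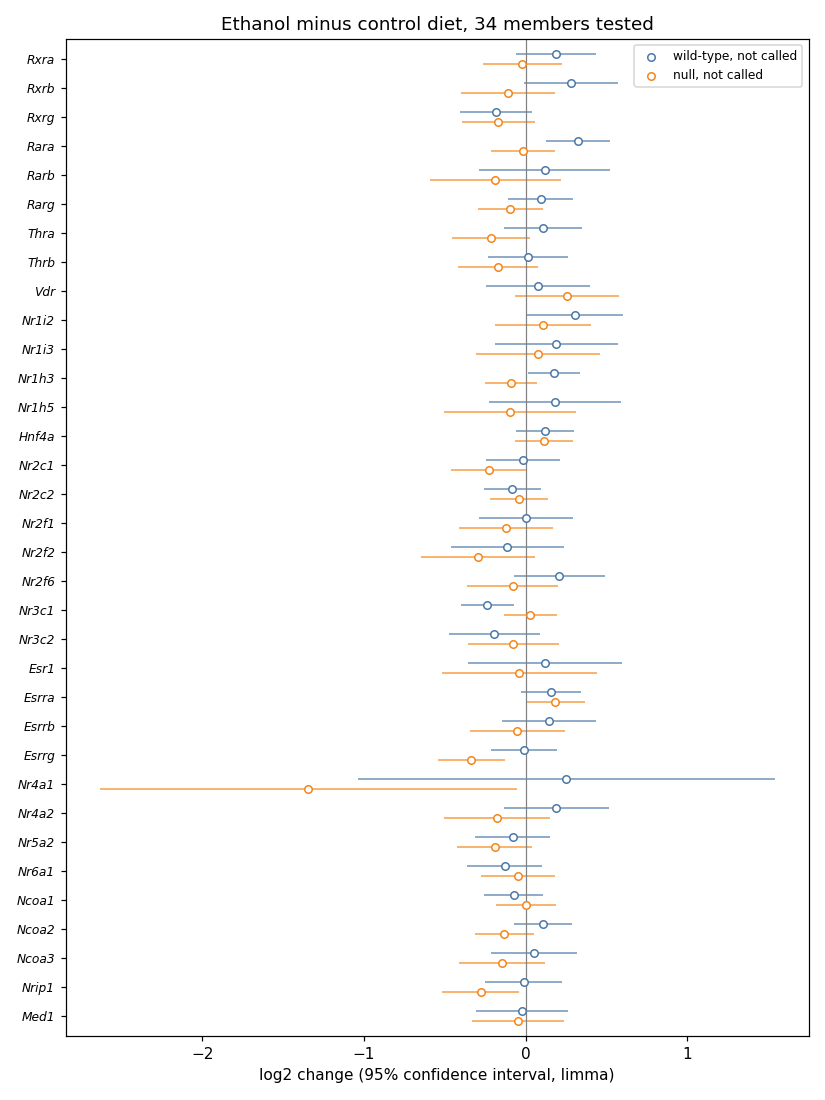
Log2 difference, ethanol minus control diet, for the tested members (rows), in wild-type mice (blue) and null mice (orange), with 95% intervals from limma. None passed at an adjusted p under 0.05, and Nr4a1 has the widest intervals.

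Over the 34 members the median log2 difference was 0.14 for genotype on control diet, beside 0.01 over all genes tested, and 26 members were positive, beside 51.9% of all genes. On ethanol diet it was -0.00, beside -0.02, with 16 members positive, beside 45.5%. For ethanol in wild-type mice it was 0.10, beside -0.01, with 22 members positive, beside 48.7%, and for ethanol in null mice -0.09, beside -0.05, with 7 members positive, beside 38.1%. The wild-type value depended on single arrays. It was 0.01 with 17 members positive without wild-type ethanol array 3, and 0.13 with 25 positive without wild-type ethanol array 1. With quantile normalization on top, 14 members were positive for ethanol in null mice, beside 49.4% of all genes. Groups did not overlap for 10 members in the higher and 1 in the lower direction for genotype on control diet, beside 14.6% and 10% of all genes, and for 5 and 4 on ethanol diet, beside 9.74% and 14.4%. For ethanol the counts were 5 and 2 in wild-type mice, beside 10.8% and 8.61%, and 1 and 3 in null mice, beside 5.59% and 13%. The genotype difference on control diet and the ethanol difference in wild-type mice share the wild-type control arrays. Within-group SD had a median of 0.140 over the members and 0.144 over all genes.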

How the data were processed

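Liver RNA of 12 samples (100 ng each) was hybridised to 1 array each, per the labels' protocols. The authors deposited linear intensity per probe set, normalised by RMA according to the submitters' processing notes, and the sources used here do not name the program version. Log2 of intensity was taken here. Of 41345 probe sets, 23521 name 1 gene, and the brightest per gene was kept. A gene was tested if above the 40th percentile of its array on at least 3 arrays. One model with 4 group means was fitted with limma 3.58.1 in R 4.3.3 (lmFit, contrasts.fit and eBayes, no trend) for 7 contrasts, with Benjamini-Hochberg adjustment over 14031 genes, and the fit was tested on simulated data. Values are given for members called in a contrast and for the 3 with the smallest p where fewer than 3 were called; others were named after their values were seen. At most 4 called genes of a list are named. The number of arrays limits the precision. Members and lists were chosen with earlier results of these data known. Alternatives are in the closing section.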

Additional observations from a re-analysis of the deposited data

How the results depend on the processing

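Across 21 named changes and 411 alternatives, 393 kept their direction and their side of the threshold, 12 lost the call, 6 gained it and 0 reversed. Only Esrrg and Rara on control diet, and Esrrg and Rxrg with the diets averaged, were called in the main fit. Most of the 393 are therefore changes that stayed not called. The changes were picked for small p-values in these data, so few reversals could occur. On control diet the count of members called for genotype fell from 2 to 1 with no filter on low values, with quantile normalization on top, with the replicate block and with only the groups compared, because Rara was lost, and leaving out 1 array gave 1 to 2. On ethanol diet the count of 0 became 1, Rxrg, with quantile normalization on top. Esrrg on control diet stayed called in all 20 alternatives (adjusted p 0.0039 to 0.0428), and Rxrg averaged over diets in all 19 (0.00358 to 0.0304). The Rara call was lost in 12 of 20 (adjusted p 0.0257 to 0.137 over the alternatives), including those that left out array 3 of wild-type control, array 2 or 3 of wild-type ethanol, any array of null control, or array 1 or 2 of null ethanol. Rxrg on control diet gained the call with a stricter filter and without null control 1 (adjusted p 0.028), and Nr3c2 averaged over diets with the replicate block, without wild-type control 2 and without null control 3. The counts over all genes moved too: genotype on control diet from 715 to 393 with no filter and 226 with only the groups compared, and between 193 (without null control array 2) and 1306 (without wild-type control array 2) with 1 array left out; ethanol in wild-type mice from 13 to 7 with no filter, 23 with a stricter filter, 43 with an offset of 16 and 24 with trend and robust settings, and to 811 without wild-type control array 2. Genotype on ethanol diet ran from 108 to 320 around 251, and genotype averaged over diets from 621 to 1317 around 982, with 1 array left out, both lowest without wild-type ethanol array 3. Ethanol averaged went from 2 to 5 with quantile normalization on top, 4 with trend and robust settings and 0 with the replicate block. For the interaction, ethanol in null mice and ethanol averaged, counts with 1 array left out ran from 0 to 84, 0 to 3 and 0 to 293. With 1 array left out, the count of Kupffer cell markers called lower ran from 1 to 7 on control diet, the lowest without null control array 2, from 0 to 3 on ethanol diet, and from 5 to 10 with the diets averaged. Under other settings it ran from 3 to 7 on control diet, the lowest with no filter. The cause of these changes was not tested.

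The replicate numbers in the labels did not pair the arrays: over 18 same-numbered pairs the correlation of deviations lay between -0.15 and 0.19, and 2 of 12 arrays correlated best with their own number. With the replicate block the count of members called was 1 for genotype on control diet and 3 with the diets averaged, where Nr3c2 was added. Esrrb, Nr1h5, Vdr and Nr2f1 lay near the brightness filter, above it on 7, 10, 11 and 11 arrays.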
